A study of Rattus norvegicus with 28 samples.

Results

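The rostral ventromedial medulla (RVM) of adult male rats was compared between animals given carrageenan and animals given saline as pups. These were the arrays whose titles name RVM with carrageenan (5 arrays) or RVM with saline (4 arrays), 9 of the 28 arrays in the series. Carrageenan, a seaweed polysaccharide that inflames tissue, was injected once at 0.25% in 0.9% saline (1 µl/g) into the sole of the left hindpaw on postnatal day 3. The strain is not named in the labels. The saline animals received a saline injection at the same place and age, so both groups had the needle and the injected fluid. Pups of both groups were weaned on day 21, and the males were kept, in cages of a single treatment, until day 59. Each array held RNA of an injected animal in channel 1 (Alexa 647) and RNA of an uninjected animal, from the same region, in channel 2 (Alexa 546). The labels do not say whether RNA of several animals was pooled, whether each array of a group stands for another animal, or whether control animals were shared between arrays. P-values therefore reflect only array-to-array spread, part or all of which may be technical.

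The RVM is the last relay of descending pain control. It receives input from the periaqueductal grey (PAG) of the midbrain and projects to the dorsal horn of the spinal cord, where its neurons can dampen or amplify the transmission of noxious input. Opioids act on this relay, GABA and glutamate set the firing of its output neurons, and some of these neurons release serotonin. The arrays carried 228 features (spotted oligonucleotides) for receptors and transporters of glutamate, GABA and amines, neuropeptide precursors and receptors, neurotrophins, and cytokines with their receptors. A gene can have several features, which are kept apart here by number.

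Every value below is a log2 ratio of injected over uninjected RNA, so that 0 is no difference from the uninjected animal and -1 is a halving. That direction is the likely one, because the injected animal was channel 1 throughout, but the deposited table does not state it. An array gives no level of its own, so the region label could not be checked against marker genes, and fewer cells of a type cannot be told apart from less RNA per cell. The array held 0 features for the listed markers of glia, vessels or all neurons. Of 2052 values on the 9 arrays, 1121 (54.6%) were an exact 0, treated here as no measurement. The carrageenan and saline arrays had medians near 0, from -0.053 to 0.034 and from -0.001 to 0.020. Over the 36 pairs of RVM arrays the correlation across all features lay between -0.13 and 0.42, with zeros kept. Over shared features only, 2 pairs were below -0.3, and carrageenan array 2 was in both. With the sign of that array turned, a setting added after seeing the data, 0 features passed between the groups by limma, as with the deposited sign.

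The groups differed first in how many features gave a ratio at all. Carrageenan arrays 1 to 5 measured 108, 30, 110, 29 and 72 features, and saline arrays 1 to 4 measured 100, 146, 141 and 195. Saline array 1 lay below carrageenan arrays 1 and 3, so the groups overlapped. The mean was 69.8 ± 39.8 (SD, n = 5) after carrageenan and 145.5 ± 38.9 (n = 4) after saline (two-sided exact permutation test, p = 0.0476). Without carrageenan arrays 2 and 4, which stood apart with the fewest features, the difference went from -75.7 to -48.8 (exact permutation p = 0.171). Those arrays were picked for the counts themselves, so the difference had to shrink. Leaving out any single array other than saline array 1 also raised p above 0.05, to between 0.0571 and 0.107. What limited measurement on these arrays was not tested.

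**Figure D1:**
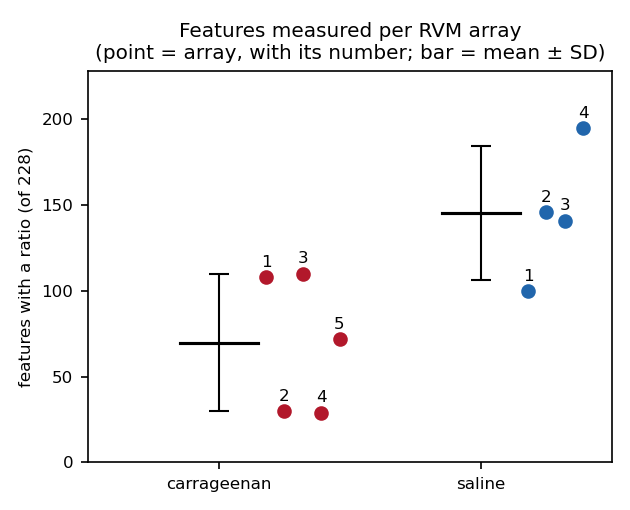
Number of the 228 features that had a ratio on each RVM array, by group, with points for arrays (labelled by array number) and bars for the mean ± SD. Carrageenan arrays 2 and 4 sit near 30, and saline array 4 is highest at 195.

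Across the arrays 61 features were measured on at least 3 carrageenan arrays, 127 on at least 3 saline arrays and 56 on at least 3 of both. On the saline arrays alone, 41 of the 212 features seen on any RVM array (19.3%) were measured at least 3 times while at most 1 carrageenan array measured them. The reverse held for 1 feature (0.472%), Calcr feature 200, a calcitonin receptor. By Fisher's exact test on measured against unmeasured arrays, 0 of 212 features passed an adjusted p of 0.05 (smallest 0.28). Before adjustment 27 (12.7%) lay below 0.05. The smallest p this design allows is 0.00794. It was reached by 6 features that all 4 saline arrays and no carrageenan array measured: Htr5b, Adora3, Il11, Il13, Pomc feature 192 and the unnamed feature 4. As 189 of the 212 features were measured on a larger share of saline than of carrageenan arrays, such a pattern is read beside that background.

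By family, the share of possible values that were measured was lower after carrageenan in every list with features on the array. For metabotropic glutamate receptors it was 20% after carrageenan and 78.1% after saline, and 5 of their 8 features were measured mainly on saline arrays. Purine receptors were measured at 20% and 80%, with 4 of 5 features mainly on saline arrays. Opioid peptide precursors stood at 34.3% and 85.7%, opioid receptors at 12% and 60%, and neurotrophic factors with their receptors at 57.1% and 82.1%. Over all 228 features the shares were 30.6% and 63.8%. These shares compare families within these arrays and were not tested one by one.

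Of the 127 features with at least 3 saline arrays, the mean farthest from 0 belonged to a glutamate receptor, although single ratios of other features were larger. Grin3a encodes an NMDA receptor subunit (GluN3A) that lowers the calcium permeability of the receptor. Its feature 180 read -4.59, -3.35, -5.14 and -4.40 on saline arrays 1 to 4. On the carrageenan arrays it read 0.21 on array 1 and -0.47 on array 3, and was not measured on the other 3. All 4 saline arrays lay far below 0. The measured arrays of the groups did not overlap, but only 2 carrageenan arrays measured the feature. With 2 carrageenan arrays and at least 2 saline arrays, Grik3 feature 89 and Ntrk3 feature 185 (higher after carrageenan) did not overlap either. Nor did Sstr4, Pomc feature 191, Gabrg3, Il23a, Hrh3 feature 9, Nts feature 183 and the unnamed feature 71 (all lower). Groups apart at such low n were thus not particular to Grin3a. With at least 3 arrays in each group this held for 2 of 56 features (3.57%). A second Grin3a feature, 228, was measured on saline arrays 3 and 4 only, at -4.35 and -5.30. Against uninjected controls the saline mean of feature 180 was -4.37 ± 0.75 (SD, n = 4, limma adjusted p = 0.0178), the single feature of 127 (0.787%) that passed, and it fell. That call was lost without saline array 1, 3 or 4 (adjusted p = 0.0546, 0.0809 and 0.112 by limma).

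Because only 2 carrageenan arrays measured Grin3a feature 180, it did not enter the comparison of the groups, which asked for 3. With at least 2 measured arrays per group, it was the single feature of 98 (1.02%) that passed, higher after carrageenan than after saline by 4.24 (95% interval 2.84 to 5.64, limma adjusted p = 0.0445). In PAG, feature 180 was measured on 2 carrageenan arrays, at -4.19 and 0.04, and on no saline array. Feature 228 averaged -1.20 ± 0.84 on PAG carrageenan arrays (n = 4) and was on no PAG saline array.

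Saline means were below 0 for 7 of 9 AMPA and kainate, 5 of 6 NMDA and 4 of 7 metabotropic glutamate receptor features, against 59 of 127 overall. Apart from Grin3a none passed the adjusted threshold, and those with the smallest p are given here. Gria1, an AMPA receptor subunit, read -2.52, -3.18 and -2.14 on saline arrays 2, 3 and 4, a mean of -2.61 ± 0.53 (n = 3). On the carrageenan arrays it read 1.42 on array 3 and -4.07 on array 5, so those arrays lay on both sides. Grm8, a presynaptic metabotropic receptor that restrains transmitter release, read -2.48, -1.98 and -1.80 on saline arrays 2 to 4, and -0.14 on the 1 carrageenan array that measured it. Grm4 feature 150, of the same receptor class, averaged -2.90 ± 1.25 on saline arrays (n = 4) and read -2.06 and -1.16 on carrageenan arrays 3 and 5. Its other feature, 149, averaged -0.88 ± 1.10 (n = 4) on saline arrays. The limma adjusted p was 0.0654 for Gria1 and for Grm8 and 0.0754 for Grm4 feature 150.

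Grik3, a kainate receptor subunit, was low in both groups. Feature 88 read -5.37, -3.25 and -3.57 on carrageenan arrays 1, 3 and 5. It read -1.50, -2.51, -3.75 and -2.51 on saline arrays 1 to 4, so the groups overlapped. The means were -4.06 ± 1.14 (n = 3) and -2.57 ± 0.92 (n = 4), with limma adjusted p of 0.282 and 0.0654 against uninjected controls. With both RVM groups in 1 fit each mean passed (adjusted p = 0.0134 after carrageenan and 0.0373 after saline). Low means of feature 88 were not particular to RVM. In PAG it averaged -4.99 ± 3.23 on carrageenan arrays and -2.11 ± 2.20 on saline arrays (n = 5 each). Feature 89 averaged -0.48 ± 0.54 on 2 carrageenan arrays and -2.28 ± 1.41 on 3 saline arrays. Gria2 feature 83, the AMPA subunit that blocks calcium entry, was below 0 on all 3 carrageenan arrays that measured it (-2.30, -1.20 and -1.40). After saline it read 0.71, -1.56 and -2.28.

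Amine features lay on both sides of 0 on the saline arrays, with means above it for 5 of 9 serotonin, 4 of 5 noradrenaline and dopamine, and 2 of 3 histamine and acetylcholine features. Those with the smallest p, Hrh1 and Htr5b, were above 0. Hrh1, the histamine H1 receptor, read 2.19, 1.49, 2.20 and 1.19 on saline arrays 1 to 4, a mean of 1.77 ± 0.51 (n = 4, limma adjusted p = 0.0654). It read 0.23 on the 1 carrageenan array that measured it, below every saline array. Htr5b, a serotonin receptor, read 1.44, 3.29, 1.96 and 1.64 on saline arrays (mean 2.08 ± 0.83, n = 4, limma adjusted p = 0.074) and had no ratio on any carrageenan array. In PAG, Htr5b averaged 1.64 ± 1.24 on 3 carrageenan arrays and 0.48 ± 0.63 on 3 saline arrays.

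Among peptides and cytokines, Il11, a cytokine of the interleukin 6 family, read 4.01, 0.99, 1.75 and 4.62 on saline arrays 1 to 4 and was not measured after carrageenan. Its mean of 2.84 ± 1.75 had a limma adjusted p of 0.165. Pomc, the precursor of beta-endorphin and of corticotropin, was measured by 3 features. Feature 192 read -1.24, -0.96, -0.67 and -0.86 on saline arrays (mean -0.93 ± 0.24, n = 4, limma adjusted p = 0.074) and on no carrageenan array. Feature 191 was above 0 on all 4 saline arrays (0.21 ± 0.18) and feature 198 on 2 of 4 (0.69 ± 1.44), so the Pomc features disagreed. Oprd1, the delta opioid receptor, read -0.60, -2.80 and -2.93 on saline arrays 2 to 4 and 0.28 on carrageenan array 5.

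The remaining features chosen for distant ratios on saline arrays had wide spreads. Il13, an interleukin, ranged from 0.06 to 5.85 (mean 1.96 ± 2.68, n = 4), and Adora3, an adenosine receptor, from -2.67 to 0.81 (mean -0.57 ± 1.49, n = 4). Grik5, a kainate subunit, averaged -2.58 ± 3.01 (n = 3), and Nts feature 182, the neurotensin precursor, 2.02 ± 2.82 (n = 3). The unnamed features 4 and 145 averaged 2.82 ± 3.50 (n = 4) and -3.44 ± 2.09 (n = 3). Except for feature 145 and Grik5, which were below 0 on 3 of 3 arrays, and Il13, which was above 0 on 4 of 4, their arrays fell on both sides of 0.

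**Figure D2:**
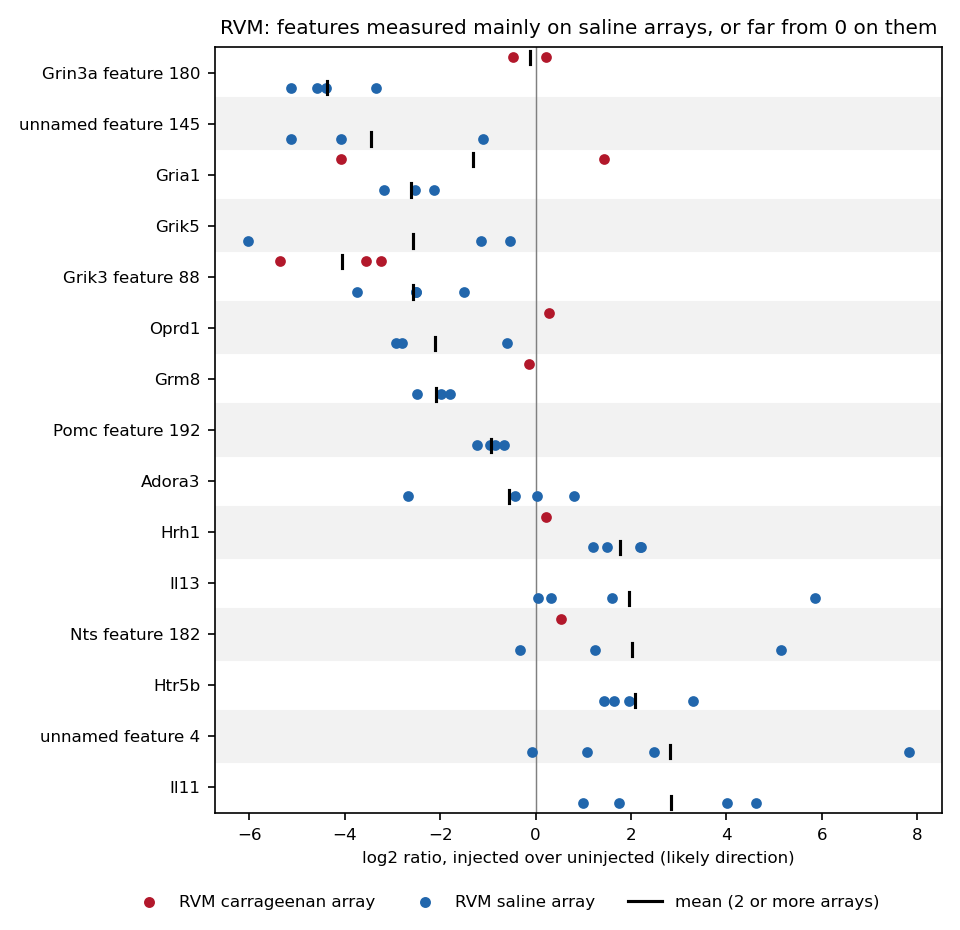
Log2 ratios (injected over uninjected, likely direction) of features measured mainly on RVM saline arrays, or with the smallest p against 0 on them, with each point an array (red carrageenan, blue saline) and black ticks for means of at least 2 arrays. Grin3a feature 180 lies between -5.14 and -3.35 on the saline arrays, and features without red points had no ratio on any carrageenan array.

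Against their uninjected controls, 0 of 61 features passed by limma on the carrageenan arrays (smallest adjusted p = 0.282). Before adjustment 4 (6.56%) lay below 0.05, of which 2 had means above 0 (3.28%) and 2 below it (3.28%). On the saline arrays 27 of 127 (21.3%) lay below 0.05 before adjustment, 12 above 0 (9.45%) and 15 below it (11.8%). Whatever the p, 40 means of the carrageenan arrays were above 0 (65.6%) and 21 below (34.4%), and 68 (53.5%) and 59 (46.5%) of the saline arrays. Dyes were not swapped, so an effect of the dye and one of the injection cannot be told apart in these values. Beside Grik3 feature 88 and Gria2 feature 83, the carrageenan features with the smallest p were Htr2c, a serotonin receptor (0.93 ± 0.60, n = 4), Hrh3 feature 95, the histamine autoreceptor (0.17 ± 0.08, n = 5), Vipr2 feature 227, a receptor for vasoactive intestinal peptide (-0.35 ± 0.27, n = 4) and Gabre feature 74, a GABA-A subunit (0.24 ± 0.22, n = 4). All measured carrageenan arrays lay on one side of 0 for each of these 6. Over the 61 features this held for 15 (24.6%), 9 above (14.8%) and 6 below 0 (9.84%), and on the saline arrays for 54 of 127 (42.5%), 28 above (22%) and 26 below (20.5%). Htr2c was as high after saline (0.96 ± 0.79, n = 4).

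Carrageenan was then set against saline directly, over the 56 features measured on at least 3 arrays of each group. With limma 0 of 56 passed an adjusted p of 0.05 (smallest 0.465). Before adjustment 4 (7.14%) lay below 0.05, 1 of them higher (1.79%) and 3 lower (5.36%) after carrageenan. The exact permutation test of each feature passed 0 after adjustment and 1 (1.79%) before it (Tac1 feature 55), its smallest possible p being between 0.00794 and 0.1 by feature. The measured arrays of the groups did not overlap for 2 features (3.57%), Sstr5 and Tac1 feature 55, both lower after carrageenan. Over all 56 features 35 were lower (62.5%) and 21 higher (37.5%), with a median difference of -0.097. Under quantile normalization 29 were lower (51.8%) and 27 higher, with a median of -0.014. Without carrageenan arrays 2 and 4 again 0 features passed, of 45 tested.

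Tachykinins, the peptides of nociceptive and arousal pathways that include substance P, gave 3 tested features of 6, all lower after carrageenan (median difference -0.80), also under median centring and quantile normalization. Tac1, the precursor of substance P and neurokinin A, read -0.32, -0.01, 0.01 and 0.06 on carrageenan arrays 1 to 4 by feature 55. On saline arrays 1 to 4 it read 0.66, 2.97, 0.42 and 0.81. Every saline array lay above every carrageenan array, saline array 2 farthest, and the difference was -1.28 (95% interval -2.59 to 0.02). Tacr2, the neurokinin A receptor, read -0.02, 0.26, -0.12 and -0.002 on carrageenan arrays 1 to 4, and 0.72, 1.13, 0.59 and 0.06 on saline arrays 1 to 4. Saline array 4 fell within the carrageenan range, and the difference was -0.59 (95% interval -1.14 to -0.05). The second Tac1 feature, 79, ranged from -0.32 to 0.60 after carrageenan and from -0.78 to 2.92 after saline, which overlapped fully. Feature 28 read -1.70 and -1.42 on saline arrays 2 and 4 and was on no carrageenan array, and feature 217 read -2.40 on carrageenan array 1 and 0.14 on saline array 4. The Tac1 features therefore disagreed on the side of the saline ratios.

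Opioid peptides had 2 tested features of 7, both of Penk, the enkephalin precursor, and they lay on opposite sides. Feature 194 read -0.55, -0.25 and -1.89 on carrageenan arrays 1, 3 and 4 and -0.11, -0.56, -0.58 and -0.21 on saline arrays, a difference of -0.53 (95% interval -1.54 to 0.47). Feature 196 read 1.78, 0.27 and 0.06 on carrageenan arrays 1, 3 and 5 and 0.29, 0.53, 0.12 and 0.04 on saline arrays, a difference of 0.46 (95% interval -0.61 to 1.53). No opioid receptor feature could be tested between the groups. Oprm1, the mu opioid receptor through which morphine acts, read -0.05 and -0.61 on carrageenan arrays 1 and 3 and -0.39, 0.59, -0.68 and -0.74 on saline arrays.

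Of other peptide systems, Sstr5, a somatostatin receptor, read -0.07, 0.29 and -0.31 on carrageenan arrays 1, 3 and 5. On saline arrays 1, 3 and 4 it read 1.60, 0.42 and 1.17, so that every saline array was above every carrageenan array. The difference was -1.10 (95% interval -2.01 to -0.18). With 3 arrays against 3 the exact permutation test cannot go below its p of 0.1. Vipr2 feature 227 was below 0 on all 8 arrays that measured it, with means of -0.35 on 4 carrageenan arrays and -0.68 ± 0.30 on 4 saline arrays. Nts feature 184 averaged 0.35 ± 0.59 and 0.68 ± 0.46 (n = 4 each), and Nts is the precursor of neurotensin, which acts on pain relays of the brain stem. Peptide receptors other than opioid and tachykinin ones were lower in 3 of 5 tested features and other peptide precursors in 2 of 2, against 2 and 1 under quantile normalization, which also turned Vipr2 feature 227 and Nts feature 184. The other precursor feature tested, Calca feature 193, averaged -2.05 ± 4.94 on 4 carrageenan arrays and 0.11 ± 0.58 on 3 saline arrays. Without carrageenan array 4, 1 of the 2 precursor features was lower, and their median difference went from -1.25 to -0.17.

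Of the serotonin features tested, the smallest p belonged to Htr4, a receptor that raises cyclic AMP. It read -0.08, 0.29, 0.08 and -0.08 on carrageenan arrays 1, 2, 3 and 5, and 0.17, 1.22, 1.09 and 0.11 on saline arrays 1 to 4. Saline arrays 2 and 3 were high and the other saline arrays lay within the carrageenan range, and the difference was -0.59 (95% interval -1.29 to 0.10). Adra2a, the inhibitory adrenergic receptor on which clonidine acts, read 0.02, 0.09 and 0.004 on carrageenan arrays 1, 3 and 5 by feature 33. On saline arrays 1 to 3 it read 0.74, 0.84 and 0.80, while saline array 4 read -0.04. The difference was -0.55 (95% interval -1.15 to 0.05), and without saline array 4 it was -0.76 and the feature passed (limma adjusted p = 0.0266). As saline array 4 was the saline array that stood apart, leaving it out had to widen the difference, so that pass adds no support. Feature 32 of the same gene averaged 0.45 ± 0.99 on 2 carrageenan arrays and 0.22 ± 0.36 on 3 saline arrays.

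Hrh3 feature 95 was above 0 on all 9 arrays, from 0.10 to 0.30 after carrageenan and from 0.06 to 0.73 after saline. Its difference was -0.28 (95% interval -0.63 to 0.07), and under quantile normalization it turned to 0.11. The other Hrh3 feature, 9, had means below 0, at -0.74 ± 0.18 on 2 carrageenan arrays and -0.11 ± 0.46 on 2 saline arrays. All 3 noradrenaline and dopamine features tested were lower, with a median difference of -0.51 (2 of 3 under quantile normalization), and serotonin features in 4 of 6, with a median of -0.019 (5 of 6 under median centring). Htr2a feature 11 and Htr5a, both serotonin receptors, differed by less than 0.01, with 95% intervals of -0.21 to 0.21 and -0.22 to 0.21. Both read close to 0 on every RVM array that measured them, from -0.028 to 0.020. Htr2a feature 12 averaged -0.88 ± 1.11 on 3 saline arrays and was on no carrageenan array.

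**Figure D3:**
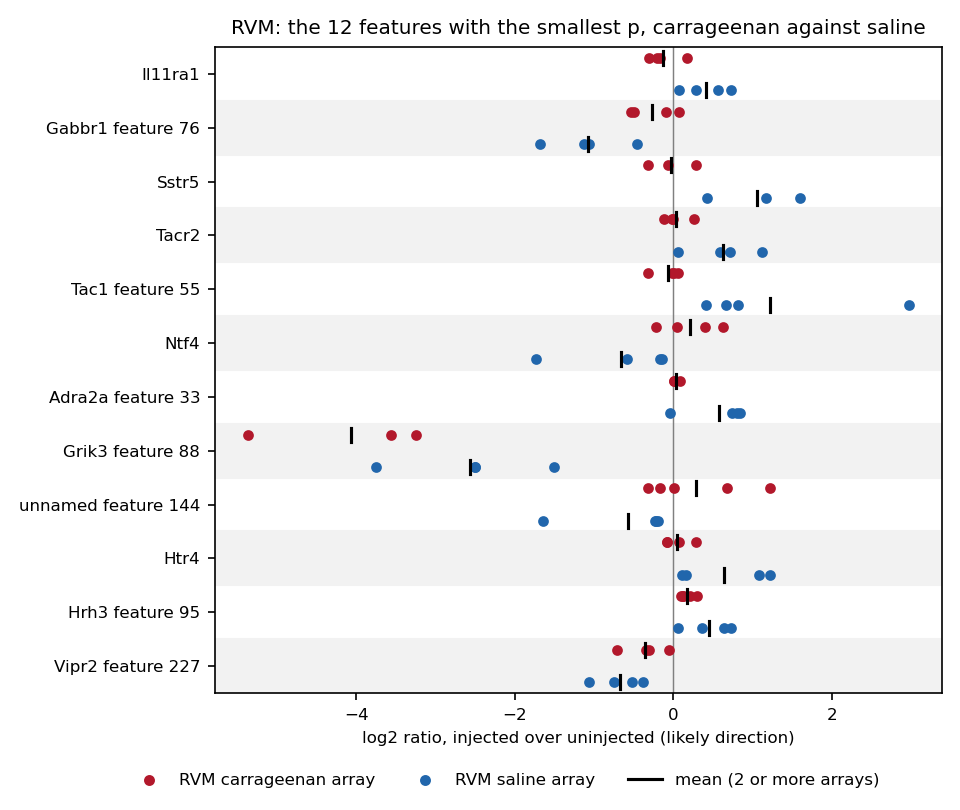
Log2 ratios (injected over uninjected, likely direction) of the 12 features with the smallest p between carrageenan and saline in RVM, with each point an array (red carrageenan, blue saline) and black ticks for group means. The groups are apart for Sstr5 and Tac1 feature 55 and overlap for the other 10.

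Of the features higher after carrageenan, the one with the smallest p belonged to Gabbr1, the subunit of the metabotropic GABA-B receptor that binds GABA and baclofen. Feature 76 read 0.07, -0.49, -0.09 and -0.54 on carrageenan arrays 1, 2, 3 and 5, and -0.46, -1.06, -1.68 and -1.13 on saline arrays 1 to 4. Saline array 1 lay within the carrageenan range and the other 3 lay below it. The difference was 0.82 (95% interval 0.16 to 1.48), and 0.11 under quantile normalization. The other Gabbr1 features measured on at least 3 arrays of a group did not separate the groups. Feature 37 averaged 0.07 ± 0.39 on 3 carrageenan arrays and 0.36 ± 0.92 on 3 saline arrays, feature 36 averaged 0.21 ± 0.26 (n = 2) and 0.90 ± 2.23 (n = 4), and feature 220 averaged -1.58 ± 2.56 (n = 2) and -0.63 ± 0.71 (n = 3). Of the GABA and glycine receptor features tested, 4 of 5 were lower (median difference -0.29), and 3 of 5 under median centring or quantile normalization. Gabre feature 60 gave the highest RVM value, 10.5 on carrageenan array 5, where no other carrageenan array measured it, and averaged 1.49 ± 1.03 after saline (n = 4).

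No glutamate receptor feature tested in both groups passed. NMDA receptor features were higher after carrageenan in 3 of 3 tested (median 0.49), led by Grin2b, the subunit of slow NMDA currents, at 0.03 ± 1.06 (n = 5) against -0.46 ± 0.30 (n = 4). Carrageenan array 1 was the highest array in all 3 features (Grin2b 1.76, Grin2d feature 171 1.15 and Grin3b 2.45). Without it the difference in means was 0.053 for Grin2b, -0.25 for Grin2d feature 171 and -0.64 for Grin3b, so the direction of the family rests on that array. None of the 3 had an unadjusted p below 0.05. AMPA and kainate features were split at 2 of 4, Grik3 feature 88 having the smallest p (-1.49, 95% interval -3.21 to 0.23). Slc1a6, a glutamate transporter, and Grm3, a metabotropic glutamate receptor, had the smallest p of their lists at differences of -0.16 (95% interval -1.17 to 0.85) and -0.09 (95% interval -1.34 to 1.17).

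Ntf4, a neurotrophin that activates the TrkB receptor, read -0.22, 0.05, 0.40 and 0.63 on carrageenan arrays 1, 2, 3 and 5. On saline arrays 1 to 4 it read -1.73, -0.17, -0.58 and -0.14. Saline array 1 was lowest and carrageenan array 1 lay within the saline range, and the difference was 0.87 (95% interval -0.05 to 1.80). The unnamed feature 144 was alike, at 0.29 ± 0.65 (n = 5) against -0.57 ± 0.72 (n = 4), with saline array 2 at -1.64. Neurotrophic features were higher in 2 of 3 tested, in 3 of 3 under quantile normalization and in 1 of 3 without carrageenan array 5.

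Il11ra1, the receptor subunit that binds interleukin 11, had the smallest p of the comparison. It read 0.17, -0.21, -0.17 and -0.31 on carrageenan arrays 1 to 4 and 0.29, 0.73, 0.56 and 0.08 on saline arrays 1 to 4. All saline arrays were above 0, and saline array 4 fell below carrageenan array 1. The difference was -0.54 (95% interval -0.98 to -0.11, limma adjusted p = 0.465). The ligand Il11, given above, was measured on saline arrays only, as were 69 of the 212 features seen on any RVM array. Il1b, a cytokine of inflammation, averaged 0.08 ± 0.51 (n = 5) against 0.67 ± 0.78 (n = 4). Cytokines were lower in 2 of 3 tested features and cytokine receptors in 2 of 4, the latter in 3 of 4 under quantile normalization. Without carrageenan array 5, cytokines were lower in 3 of 3 and cytokine receptors in 4 of 4. The median difference of the receptors then went from 0.07 to -0.27.

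**Figure D4:**
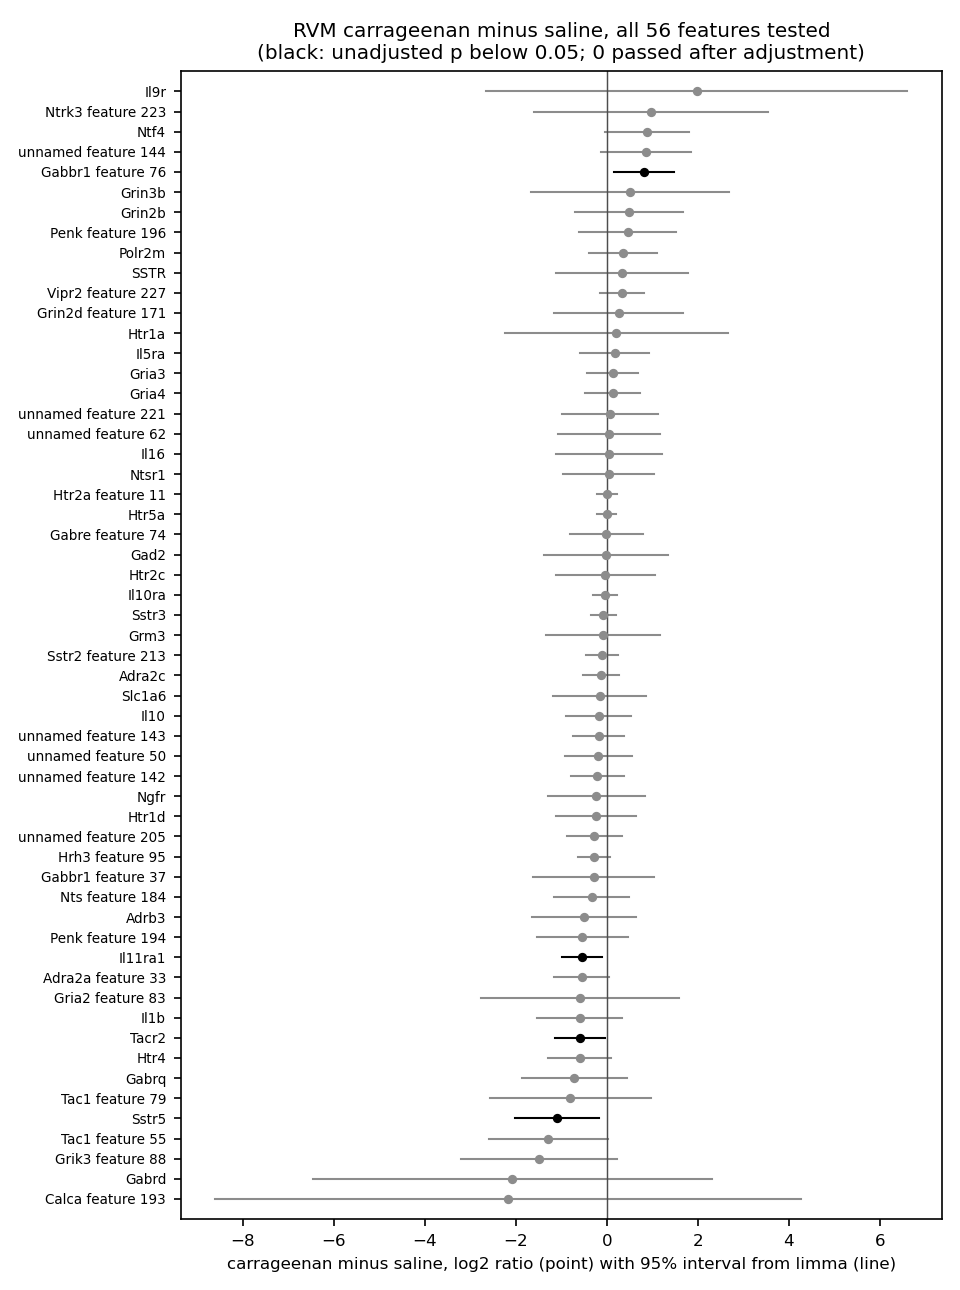
Difference between carrageenan and saline in RVM (log2 ratio, point) with its 95% interval from limma (line) for each of the 56 features tested. Intervals that leave out 0 are drawn in black, for Gabbr1 feature 76 above 0 and for Il11ra1, Tacr2 and Sstr5 below it.

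The distance of the ratios from 0 was described for the same 56 features. The carrageenan mean was closer to 0 than the saline mean in 39 of them and farther in 17, and the median absolute mean was 0.13 after carrageenan and 0.33 after saline. Over the 12 features measured on all 9 arrays, the median absolute ratio of an array averaged 0.20 ± 0.09 on the 5 carrageenan arrays and 0.30 ± 0.26 on the 4 saline arrays, a difference not larger than the spread between them (exact permutation p = 0.54). Both measures were chosen after seeing the data.

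The PAG, which projects to the RVM, was compared by the same design, with 5 arrays per group. The question was whether the difference between carrageenan and saline itself differed between the regions. Of 48 features limma called 0 (lowest adjusted p 0.0633). Before adjustment 3 (6.25%) lay below 0.05, 1 of them higher in RVM (Gabbr1 feature 76, 2.08%) and 2 lower (Htr4 and Tac1 feature 55, 4.17%). At any size 20 were higher (41.7%) and 28 lower (58.3%). In these 3 features, which the test ranked by that contrast, the groups lay the opposite way round in PAG. The same held for 27 of all 48 features (56.2%). Gabbr1 feature 76 differed by 0.82 in RVM and by -1.71 in PAG, so that the regions differed by 2.53 (95% interval 1.16 to 3.91, limma adjusted p = 0.0633). Feature 37, the other feature of this gene tested here, lay the opposite way in both regions, by -0.29 in RVM and 0.45 in PAG. Its difference between regions was -0.74 (95% interval -2.26 to 0.78), so the tested features of the gene disagreed in direction. Feature 76 passed in 8 of 28 alternative settings, among them array weights (adjusted p = 0.0144) and at least 4 measured arrays per group (0.033).

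Htr4 differed by -0.59 in RVM and by 0.85 in PAG, a difference between regions of -1.45 (95% interval -2.33 to -0.56, limma adjusted p = 0.0806). Tac1 feature 55 differed by -1.28 in RVM and by 0.75 in PAG, a difference between regions of -2.03 (95% interval -3.38 to -0.68, limma adjusted p = 0.0959). Both passed with at least 4 measured arrays per group (adjusted p = 0.0389 and 0.0493 by limma). Both features, and Gabbr1 feature 76, already had at least 4 measured arrays in every group. That filter left their ratios as they were and took other features out of the adjustment, so these passes add no support. Tacr2 and Il11ra1 followed, with differences between regions of -1.69 (95% interval -3.42 to 0.05) and -0.70 (95% interval -1.48 to 0.08). The number of measured features also lay the opposite way in PAG, at 148.8 ± 36.9 per array after carrageenan and 80.8 ± 26.8 after saline (n = 5 each), and its part in these differences was not tested. By count of measured features the RVM saline arrays were closest to the PAG carrageenan arrays. The files hold no check of which injection an array stands for, so every direction between carrageenan and saline, and each difference between regions, rests on the array labels. Were the labels of the groups exchanged in a region, its directions would turn.

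**Figure D5:**
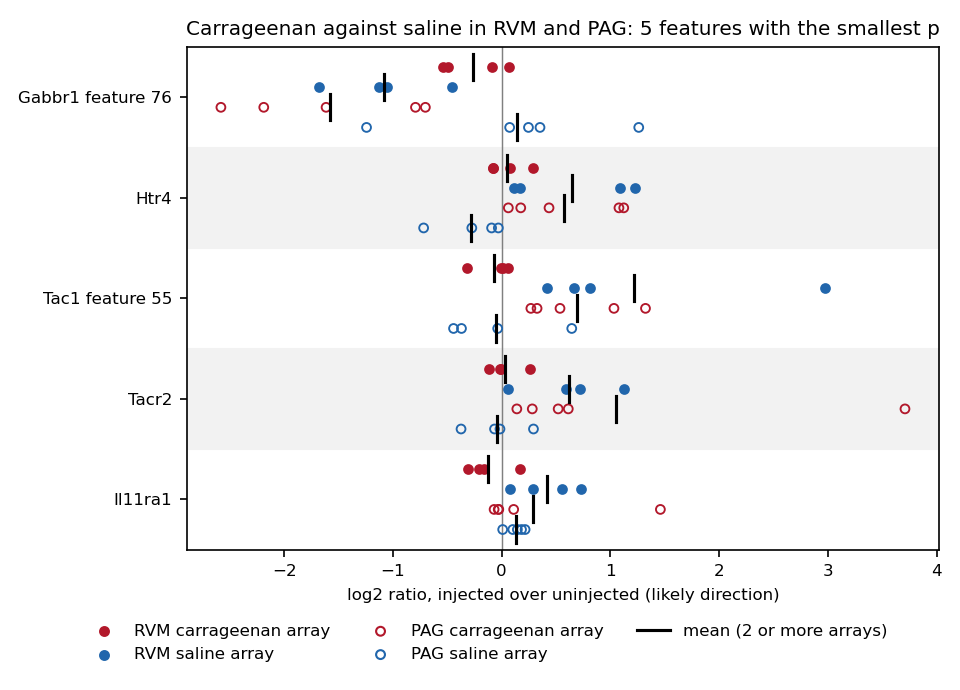
Log2 ratios (injected over uninjected, likely direction) in RVM (filled) and PAG (open) after carrageenan (red) or saline (blue) for the 5 features with the smallest p for a difference between regions, with each point an array and black ticks for group means. Gabbr1 feature 76 is lower on saline arrays in RVM (mean -1.08) and on carrageenan arrays in PAG (mean -1.58).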

How the data were processed

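Deposited log2 ratios, computed by the authors, were used without rescaling. Per the labels' protocols, total RNA was isolated with TRIzol, 5 µg per sample was reverse transcribed, and a 3DNA kit bound the dyes (65 °C, 3 h). Scanning, background correction and normalization are not given in the sources used here. The table states no log base, centring or direction. Base 2 was inferred from the range of -13.2 to 10.5, which in base 10 would be implausibly large ratios.

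Of 228 features 202 had 1 gene symbol and 26 none. Through a RefSeq gene table (GRCr8) 191 were updated and 11 kept the annotation's name.

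Exact zeros counted as missing. The linear models of limma 3.58.1 under R 4.3.3, moderated by eBayes (two-sided tests, 95% intervals), were fitted to the arrays of each comparison, without covariates, on features with at least 3 measured arrays per group, with Benjamini-Hochberg adjustment within each of 4 comparisons at 0.05. Counts of measured features were tested by exact permutation and Fisher's exact test (scipy 1.17.1). The code was tested on simulated data. Named features were the 12 with the smallest p, those with unadjusted p below 0.05 or groups apart, the smallest p of each list, opioid and tachykinin features, the 6 with the smallest p against uninjected, the 10 most distant measured mainly in 1 group and those measured on all arrays of 1 group only, the 5 with the smallest p between regions, and other features of these genes. Gene lists (19, 17 with features) were described by counts, without set tests. The comparison, lists and rules were chosen with earlier results of these data known. Alternatives were other normalizations, filters, weights, pooled fits, a replicate block and leaving out arrays.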

Additional observations from a re-analysis of the deposited data

Results flagged for a closer look

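In 4 of 46 groups of 4 or 5 arrays 1 array stood far from the others. Such a gap is expected by chance in about 5% of groups. Tac1 feature 55 read 2.97 on RVM saline array 2, against 0.42 to 0.81 on the other saline arrays. Adra2a feature 33 read -0.042 on RVM saline array 4, against 0.74 to 0.84 on the others. The unnamed feature 144 read -1.64 on RVM saline array 2, and Nts feature 184 read 1.22 on RVM carrageenan array 4.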

How the results depend on the processing

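Of 743 feature values recomputed under the alternatives, 709 kept their direction and their side of the threshold, 3 lost and 21 gained a call, and 10 turned. The cause of these changes was not tested, except that leaving out arrays lowers n. Filters on the number of measured arrays change which features enter and leave the ratios of each feature as they are. Between carrageenan and saline in RVM, 0 features passed, against 1 with at least 2 measured arrays, 4 with zeros kept (Grin3a feature 180, Hrh1, Htr5b and Pomc feature 192, whose carrageenan values are then mostly or all zeros, so that this is no measure of the carrageenan arrays) and 0 to 1 when each array was left out (Adra2a feature 33 without saline array 4). Against uninjected controls, carrageenan went from 0 to 2 under quantile normalization and 1 with both RVM groups in 1 fit. Saline went from 1 to 3 under quantile normalization, with at least 4 measured arrays or with both groups in 1 fit, and to between 0 and 1 without single arrays. Between the regions, 0 became 3 with at least 4 measured arrays, 6 with zeros kept, 1 with array weights, 2 with carrageenan array 2 turned (added after seeing the data) and 0 to 2 without single arrays. The difference in measured features per array ranged from -90.87 to -59.2 without single arrays and was -48.8 without carrageenan arrays 2 and 4, also added after seeing the data. Turned values were Grik3 feature 88 with zeros kept (0.13), Hrh3 feature 95 (0.11), Vipr2 feature 227 (-0.07) and Nts feature 184 (0.74) under quantile normalization, Slc1a6 with the replicate block (0.013) and without single arrays (-0.495 to 0.11, turned without saline array 3), Grm3 with array weights (0.165) and without single arrays (-0.442 to 0.247, turned without saline array 1, at 0.069, or 2), and Adora3 on saline arrays without single arrays (-1.03 to 0.13, turned without array 3). The labels state no pairing. Deviations from the group means correlated from -0.059 to 0.228 between same-numbered arrays and from -0.408 to 0.222 between the others. As these ranges overlap, they cannot decide whether the numbers pair arrays. With the replicate block 0 of 50 features passed. The number of arrays and of measured ratios limits precision, and spot intensities were not used here.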
